A study of Mus musculus with 24 samples.

Results

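Peaks listed from STAU2 immunoprecipitation and input RNA of mouse embryonic cortex were described for 10 genes of the neuronal cytoskeleton and growth cone. These were Stmn1, Stmn2, Basp1, Gap43, Tubb3, Map2, Mapt, Dcx, Ank2 and Ank3. The genes were chosen by name, and every deposited peak on the gene's own strand between its annotated start and end was taken. All 10 were found among 22028 protein-coding genes of GENCODE vM21, and 9 of them held 40 of the 29007 deposited peaks. The series set RNA from STAU2 immunoprecipitation (RIP) beside RNA of the input lysate on 4 embryonic days (E11.5, E13.5, E15.5, E17.5), with 3 RIP and 3 input libraries per day, each from the pooled cortices of 1 litter. The labels name no strain or genotype. The 6 libraries of a day stand behind 1 pair of peak lists, 1 per strand, so no value exists per library, the read depth is unknown and no difference between days could be tested. Per day the lists held 6530, 5871, 10265 and 6341 peaks from E11.5 to E17.5. A list of peaks does not give the level of an RNA, so whether a gene without a peak was unbound, weakly expressed or below detection cannot be told apart. The lists do not say in which direction RIP and input differed at a peak.

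As a check of tissue, exonic peaks were looked up for 10 fixed cortex genes and for 3 lists of other cell types. Of the cortex genes, 4, 6, 7 and 3 had an exonic peak from E11.5 to E17.5, and the forebrain regulator Lhx2 had one on all 4 days. Of 8 vessel and meninges genes, 1, 4, 2 and 0 had one. Of 6 microglia genes, 0, 1, 1 and 0 had one (0%, 16.7%, 16.7% and 0%), and of 6 erythroid genes none had one on any day. The day with most vessel and meninges genes, E13.5, was also the day with most of the 10 cytoskeleton genes, when any touch of an exon counts. The part of these cells in the results was not tested.

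The products of these genes build and steer the processes of young neurons. Stathmins bind tubulin dimers and favour microtubule disassembly, while MAP2, tau (from Mapt) and doublecortin (from Dcx) bind and stabilise microtubules, MAP2 mainly in dendrites and tau mainly in axons. GAP-43 and BASP1 are membrane-attached proteins of the growth cone, the motile tip of the axon. Ankyrins tie membrane proteins to the spectrin skeleton, and ankyrin-G, from Ank3, organises the axon initial segment. STAU2 binds double-stranded stretches of messenger RNA and acts in RNA transport and stability in neurons and their progenitors.

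The sequences below show the edges of the 6 stretches that carried peaks on more than 1 day, because those stretches are where the lists of different days meet. Each is 30 bases of the transcript, 5′ to 3′, from GENCODE vM21 transcripts on GRCm38 (mm10), and capitals mark the bases that lay under a peak on every day named.
Basp1 at E13.5, E15.5 and E17.5, chr15:25363388-25363417, minus strand: CTCAGACACCAACACACCACccattggaaa
Basp1 at E15.5 and E17.5, chr15:25363899-25363928, minus strand: cgagatcattGTCTGAAAGTACATCATCTG
Mapt at E15.5 and E17.5, chr11:104330665-104330694, plus strand: ccaagctgtcAGCCCCCTGAACTTGCACGA
Mapt at E13.5 and E15.5, chr11:104331456-104331485, plus strand: ccaCTAATAGGCTTTCGCAAGGCAGAGGTA
Mapt at E13.5 and E15.5, chr11:104331553-104331582, plus strand: ctcttcctgcTGCCTTCTTGTgatgtccag
Ank3 at E15.5 and E17.5, chr10:70025152-70025181, plus strand: ccaatcactaGTAACCATCCCAGCAGTGCC

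At E11.5 1 of the cytoskeleton genes had an exonic peak, and from E13.5 on at least 5 of them had one. Only Map2 of the 10 genes had an exonic peak at E11.5, where 9.06% of all protein-coding genes had one. At E13.5 it was 7 of 10, against 11.7% of all protein-coding genes. The 7 were Stmn1, Stmn2, Basp1, Mapt, Dcx, Ank2 and Ank3. At E15.5 it was 6 of 10, against 19.8% of all protein-coding genes, with Gap43 added and Stmn1 and Ank2 without a peak. At E17.5 it was 5 of 10, against 13.5%, namely Stmn1, Basp1, Mapt, Ank2 and Ank3. At E13.5 the peaks that touched exons of Stmn1 and Ank2 lay mostly outside exons. When at least 50% of a peak had to lie in exons, 1, 5, 6 and 5 genes had one from E11.5 to E17.5. Counting any same-strand peak over the gene body gave 3, 7, 6 and 5 genes, against 10.4%, 12.5%, 20.8% and 14.3% of all protein-coding genes. No gene was listed on all 4 days, 3 had exonic peaks on 3 days (Basp1, Mapt and Ank3), 4 on 2 days, 2 on 1 day and Tubb3 on none. Of all protein-coding genes, 1.77% had exonic peaks on all 4 days, 4.82% on 3, 9.12% on 2, 14.3% on 1 and 70.0% on none. The background counts every protein-coding gene, whether or not the cortex expresses it, so it is a low mark for genes of abundant neuronal messages.

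**Figure D1:**
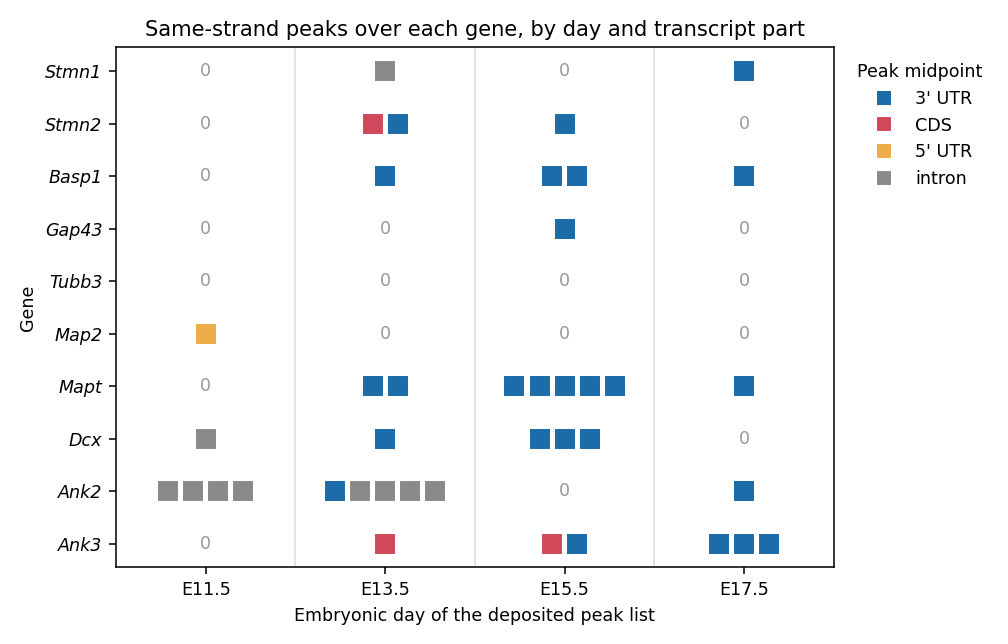
Each square is 1 deposited peak on the gene's strand, placed by gene (rows) and embryonic day (columns) and coloured by the transcript part at the peak's midpoint; 0 marks a gene and day without a peak. E11.5 shows 5 intronic squares and 1 in a 5' UTR, and E17.5 shows 7 squares that all lie in 3' UTRs.

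In number, the day lists held 6, 13, 14 and 7 peaks over these genes from E11.5 to E17.5. With every list cut to its 5871 best-ranked peaks, the length of the shortest, the counts were 6, 13, 7 and 7. By midpoint, 26 of the 40 lay in a 3' UTR, 3 in coding sequence (CDS), 1 in a 5' UTR and 10 in an intron. The parts were unevenly spread over the days. The intronic peaks were 5 at E11.5 and 5 at E13.5, and there were none at the later 2 days. Among peaks with an exonic midpoint, the 3' UTR took 0 of 1 on E11.5 and 6 of 8 on E13.5 (75.0%, exact Clopper-Pearson 95% interval 34.9% to 96.8%). It took 13 of 14 on E15.5 (92.9%, 66.1% to 99.8%) and each of the 7 on E17.5 (100%, 59.0% to 100%). Over all protein-coding genes the 3' UTR shares were 44.2%, 55.8%, 60.3% and 59.1%. The intervals cover counting error of peaks only, and peaks of 1 gene are not independent: of the 14 at E15.5, 5 were of Mapt and 3 of Dcx.

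The stathmins were listed in different places on different days. Stmn1 had 1 peak at E13.5, which ran 1680 bp (chr4:134468429-134470108) across the whole first intron of 1312 bp, with 368 bp in exons, all of 5' UTR. It ranked 314 of 5871 by the authors' p, the best of the 10 genes on that day. Its first bases also overlap the predicted microRNA gene Gm23634 on the same strand, so the source of the reads there is uncertain. The E17.5 peak of Stmn1 (chr4:134473335-134473675, 341 bp) instead spanned the stop codon and the first 272 bases of the 3' UTR. It carried the highest signal of the 7 peaks of that day, 10389, at the 99.8th percentile of its day, yet ranked only 3798 of 6341. The signal is the authors' own value per peak, on a scale that is not stated, and it is compared here only within a day's list.

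Stmn2, whose product SCG10 is a stathmin of axons and growth cones, had 2 peaks at E13.5 and 1 at E15.5. The first lay in coding sequence (rank 3339 of 5871, signal 356) and is one of the 3 CDS peaks of the 10 genes. Its 71 bases are shown whole because coding peaks were rare here.
Stmn2 at E13.5, chr3:8554872-8554942, plus strand: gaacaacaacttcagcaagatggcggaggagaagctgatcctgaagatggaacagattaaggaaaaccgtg
The other 2 lay in the 3' UTR, at 585 nt past the stop codon on E13.5 (chr3:8560910-8560959, signal 104) and at 202 nt past it on E15.5 (chr3:8560527-8560590, signal 90.1). They did not overlap. The E15.5 peak had the lowest GC content of the 29 peaks that lay within 1 coding isoform, 21.9%, against 42.3% for the whole Stmn2 3' UTR. Its middle 30 bases show that composition.
Stmn2 at E15.5, chr3:8560544-8560573, plus strand: ttgtaaatatttacatttttgttaaaaaat

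Mapt had the most exonic peaks, 8 in all, and every one lay in its 3' UTR of 3903 nt. At E13.5 there were 2, with signals of 30.9 and 18.1 and ranks 2047 and 1686 of 5871. At E15.5 there were 5, with signals of 70.3, 148, 21.7, 83.8 and 123 in order along the transcript, and ranks between 3846 and 9928 of 10265. At E17.5 there was 1, with a signal of 108 and rank 5398 of 6341. Of the 6 peaks at E15.5 and E17.5, 5 were in the weaker 50% of their list. With every list cut to the 5871 peaks of the shortest, 2, 1 and 1 Mapt peaks would be left from E13.5 to E17.5. They spread from 1292 nt past the stop codon to 290 bp from the annotated gene end and left the part nearest the stop codon bare. Together they covered 1013 bases, 26.0% of the 3' UTR.

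Dcx, a gene of migrating neurons, had an intronic peak at E11.5 (chrX:143866798-143866907, signal 14.5), 2302 bp from the nearest exon. Its later peaks all lay in the 3' UTR of 7709 nt. At E13.5 a peak of 50 bp (chrX:143856063-143856112, signal 188, rank 5638 of 5871) sat 221 bp from the annotated gene end. At E15.5 there were 3, with signals of 250, 207 and 24.0. The strongest of them (chrX:143856209-143856561, 353 bp) ranked 682 of 10265, the best of the 10 genes on that day. It did not overlap the E13.5 peak. Apart from the weakest, the 3' UTR peaks of Dcx ended 221, 367 and 840 bp from the annotated gene end, and none was listed on E17.5.

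Of the microtubule genes among the 10, Map2 had a peak at E11.5 only and Tubb3 had none. Map2 had a single peak, at E11.5 (chr1:66362218-66362272, 55 bp, signal 175, rank 3315 of 6530), in a 5' UTR exon that 7 coding isoforms share. It was the only exonic peak of the 10 genes on that day and, over all days, the only one with its midpoint in a 5' UTR. Its middle 30 bases are printed for that reason.
Map2 at E11.5, chr1:66362230-66362259, plus strand: tttgagaatacaacatagcaaacttcacta
No peak touched the 3' UTR of Map2, which spans 3576 bases over all isoforms. Tubb3, the neuronal β-tubulin, had no same-strand peak on any day, nor did one lie within 5000 bp downstream of it.

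All 5 peaks of the growth cone genes had their midpoint in a 3' UTR. Basp1 had 1 peak on E13.5 (chr15:25363392-25363789, signal 953), 2 at E15.5 (chr15:25363358-25363487 and chr15:25363842-25363918, signals 696 and 781) and 1 at E17.5 (chr15:25363398-25363918, signal 2970). All 4 were at or above the 98.9th percentile of signal on their day. Their ranks differed more: 435 of 5871 at E13.5, 8592 and 9568 of 10265 at E15.5, and 655 of 6341 at E17.5. Basp1 was therefore listed among the strongest peaks on 2 days and near the end of the list on the day between, with a signal as high in its list on all 3. Together the peaks covered 561 of 952 bases of the 3' UTR, 58.9%. Gap43 had 1 peak, at E15.5 (chr16:42248863-42249112, 250 bp, signal 225, rank 4389 of 10265), which held the last 84 bases of the coding sequence and the first 166 of the 3' UTR. At E11.5, E13.5 and E17.5 Gap43 was not listed.

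Ank2 and Ank3 are long genes, of 577739 bp and 628666 bp, and their peaks took different courses. Ank2 had 4 peaks at E11.5 within 1208 bp of a single intron (chr3:126960352-126961559), the nearest of them 487 bp from an exon. Their signals lay between 6.33 and 6.51, near the 4th percentile of the day. At E13.5 it had 5 peaks within 1530 bp (chr3:126940120-126941649), separated by gaps of 35 to 52 bp, so that 1339 bases were covered. Their signals lay between 5.87 and 6.46, at percentiles of 12.5 to 14.2, while the first 3 ranked 391, 682 and 828 of 5871. These 5 filled the space between a short coding exon of 75 bp and the exon of 6198 bp that encodes the neuron-specific insert of giant ankyrin-B, and reached into both. The midpoint of the first lay in a 3' UTR exon of an isoform annotated for nonsense-mediated decay, and for that reason it counts as 3' UTR above. At E15.5 Ank2 had no peak. At E17.5 a single peak (chr3:126923750-126923958, 209 bp, signal 57.5) began at the stop codon of the longest isoform. It ranked 93 of 6341, the best of the 10 genes on that day (p = 2.84e-05 in the authors' deposited table). It also had the highest GC content of the 3' UTR peaks, 56.0%, against 41.5% for that 3' UTR. Its middle 30 bases are given beside those of the AT-rich Stmn2 peak above.
Ank2 at E17.5, chr3:126923840-126923869, minus strand: ggaccaagacgacctccagcgagatctcca

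Ank3 had CDS peaks first and 3' UTR peaks later. Its E13.5 peak (chr10:69986682-69986735, signal 4.46, rank 3326 of 5871) had the lowest signal of the 13 peaks of that day, and the E15.5 CDS peak (chr10:69992863-69992911, signal 46.3) ranked 2130 of 10265. Both are shown whole as the other coding peaks of the 10 genes.
Ank3 at E13.5, chr10:69986682-69986735, plus strand: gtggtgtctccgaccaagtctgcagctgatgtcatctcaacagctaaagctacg
Ank3 at E15.5, chr10:69992863-69992911, plus strand: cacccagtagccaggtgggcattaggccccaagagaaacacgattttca
In the 3' UTR, Ank3 had 1 peak at E15.5 (chr10:70025162-70025228, signal 33.7, rank 1347 of 10265) and 3 at E17.5, with signals of 29.9, 38.3 and 23.0. The E15.5 peak lay wholly inside the middle one of E17.5 (chr10:70025107-70025250, rank 1410 of 6341). The first of the E17.5 peaks was AT-rich, with 26.8% GC, and its middle holds a run of repeated CTTT units. Reads from such a repeat can match several places, and how the authors counted them is unknown here.
Ank3 at E17.5, chr10:70024287-70024316, plus strand: ctgttcctttctttctttctttctttcttt

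**Figure D2:**
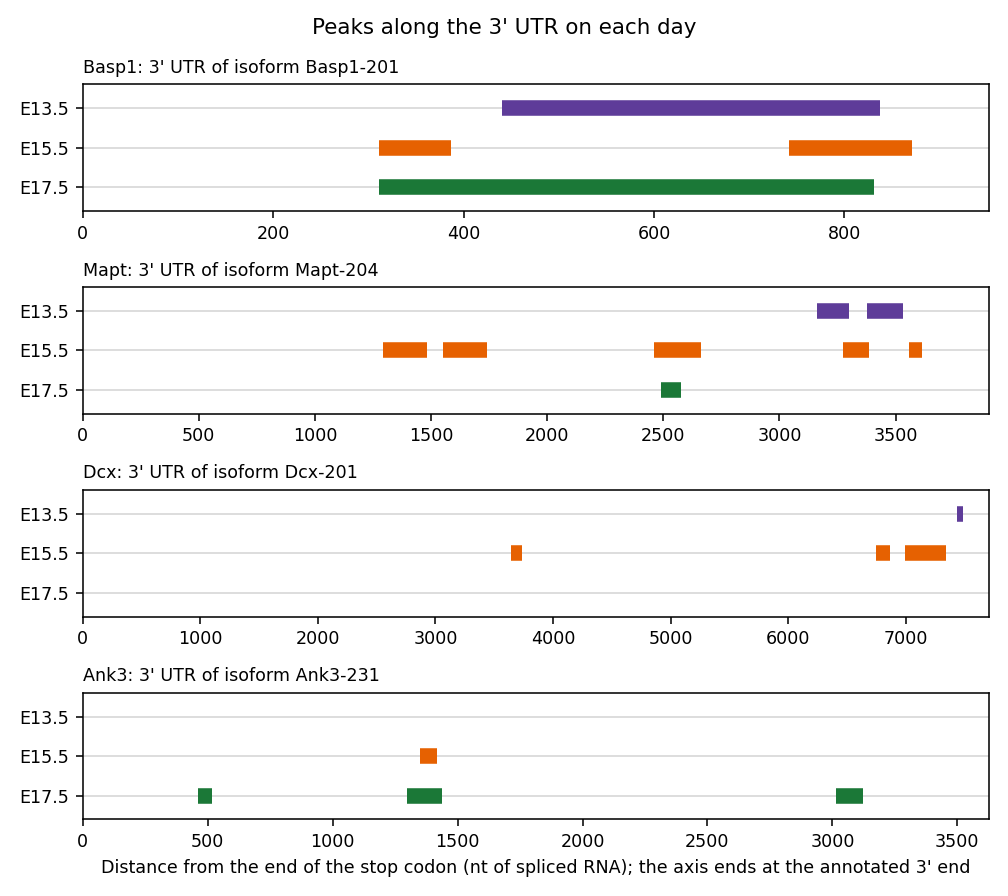
Bars show the peaks of each day along the 3' UTR of 4 genes, with the distance from the stop codon in spliced nucleotides on the x axis, which ends at the annotated 3' end. Bars of different days overlap in Basp1, Mapt and Ank3, while those of Dcx do not overlap, and 3 of its 4 lie near the 3' end.

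Positions were held on several days in 3 genes. In Basp1 a stretch of 90 bases (chr15:25363398-25363487) lay under a peak on each of the 3 later days. The E13.5 and E17.5 peaks of Basp1 began within 6 bases of each other on the genome and shared 392 bases, and the second E15.5 peak ended at the same base as the E17.5 peak, 25363918. In Mapt the E17.5 peak lay wholly within an E15.5 peak (89 shared bases, chr11:104330675-104330763), whereas the E13.5 peaks shared only 27 and 11 bases with an E15.5 peak lying between them. The E15.5 peaks of Basp1 and Mapt in these overlaps all ranked beyond 5871 of 10265. In all, 11 of the 40 peaks (27.5%) were overlapped by a peak of another day, and 24.3% of all peaks over protein-coding genes were. Among exonic peaks it was 11 of 32 (34.4%), against 29.9% of all. Both shares lay near those of all genes. When at least 50% of both peaks had to be shared, 2 remained, the E13.5 and E17.5 peaks of Basp1.

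Within the 3' UTR, the 25 peaks that could be placed on 1 isoform had a median position of 60.0% of the way from the stop codon (quartiles 36.7% and 84.7%), and 9 (36.0%) lay in the last 25%. All 3' UTR peaks placed on the longest isoform had a median of 49.2% (quartiles 23.1% and 73.6%, n = 8451), with 23.7% in the last 25%. Of the 26, 15 (57.7%) lay within 1000 bp of the annotated gene end, against 62.9% of all 3' UTR peaks. All 4 Basp1 peaks were among these. The stop codon lay at least in part under 3 peaks, those of Stmn1 and Ank2 on E17.5 and of Gap43 on E15.5. The Ank2 peak held only the last 2 bases of the stop codon. GC content ran from 21.9% to 56.0% with a median of 49.0%, and 16 of 25 peaks were richer in GC than their own 3' UTR. The minimum free energy that RNAfold gave for the 29 peaks within 1 isoform ran from -30.8 to -3.8 kcal/mol per 100 nt, with a median of -18.6. The lowest was a Mapt peak of E15.5 (chr11:104329479-104329668), followed by Ank2 at E17.5 with -29.7, and the highest was the CTTT-rich Ank3 peak. These energies depend on length and base composition and were set against no other sequences.

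**Figure D3:**
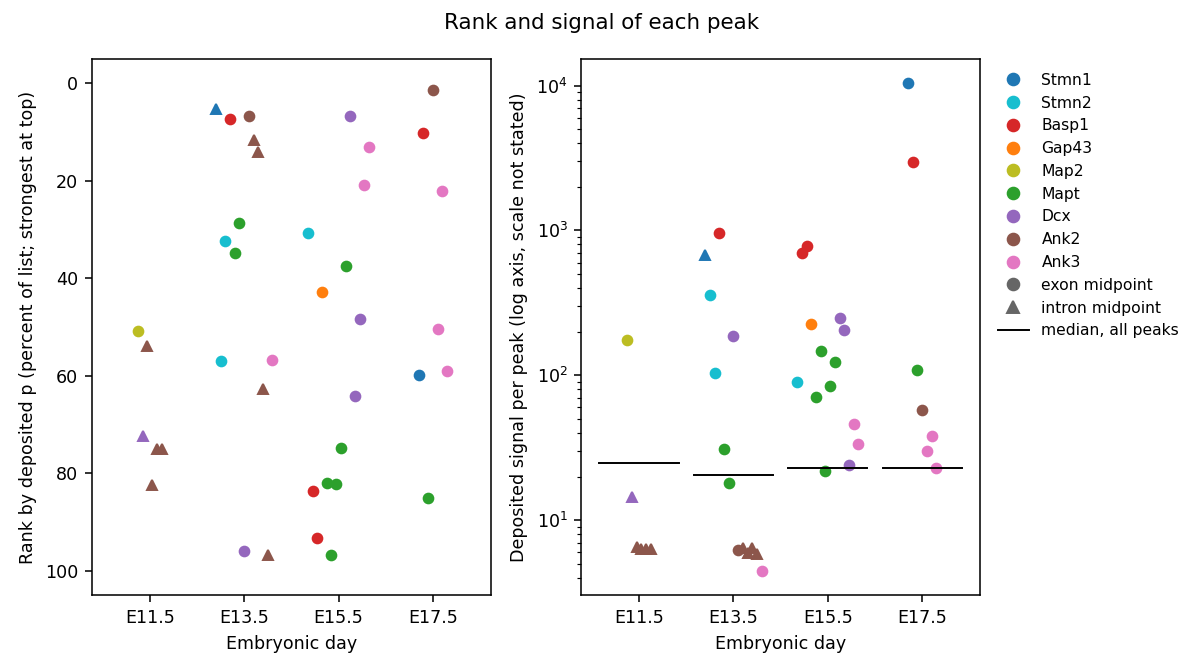
The left panel gives each peak's rank by the authors' p as a percent of its day's list, with the strongest at the top, and the right panel its deposited signal on a log axis with the median of all peaks of the day as a line. At E13.5 all 5 Ank2 peaks are low in the right panel and 3 of them are high in the left one, and at E15.5 the 2 Basp1 peaks are the reverse.

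Rank and signal did not run together for these genes. Of the 26 peaks in 3' UTRs, 23 had a signal above the median of all peaks of their day, while 14 lay in the stronger 50% by p. Of the 10 intronic peaks, 9 had a signal below that median, and the exception was the Stmn1 peak of E13.5, which is partly exonic. By day, from the earliest, 0 of 6, 8 of 13, 7 of 14 and 3 of 7 peaks were in the stronger 50% by p. The median signal of the cytoskeleton peaks was 6.42, 18.1, 107 and 57.5 from E11.5 to E17.5, and that of all peaks was 24.7, 20.6, 22.8 and 22.9. The median percentile of their signal was 4.19, 45.8, 87.9 and 76.7. These medians count peaks, and peaks of 1 gene are not independent. Ank2 gave 4 of the 6 peaks at E11.5, with signals of 6.33 to 6.51. It gave 5 of the 13 at E13.5, with signals of 5.87 to 6.46. At E13.5 Stmn1, Stmn2, Basp1, Mapt and Dcx each had a peak above the day's median signal. Ank2 and Ank3 had none.

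Other genes of the same structures were read from 4 lists that exclude the 10 genes. Of these 108 genes, 80 (74.1%) had an exonic peak on any day, while 70.0% of all protein-coding genes had none. The counts from E11.5 to E17.5 were 28 (25.9%), 30 (27.8%), 59 (54.6%) and 42 (38.9%). Against all protein-coding genes, where the shares were 9.06%, 11.7%, 19.8% and 13.5%, they were higher on each day. The order of the days depends on the longer list of E15.5. With the 5871 best-ranked peaks of each day, the wider lists had 24, 30, 42 and 42 genes with an exonic peak, and the 10 genes described here had 1, 7, 5 and 5. Of 48 microtubule genes, 12, 16, 30 and 25 had an exonic peak from E11.5 to E17.5. Mid1, a microtubule-associated ubiquitin ligase, and the stathmin gene Stmn4 had one on all 4 days. Stmn3, Map1b, Map4, Map7d1, Tubb2a, Tubb2b, Tubb4a, Camsap1, Clasp1, Mapre2, Mapre3, Dst and Pafah1b1 had one on 3. The best ranks were those of Tubb4a at E11.5 (102), Ndel1, a dynein cofactor, at E13.5 (261), the plus-end binding gene Mapre1 at E15.5 (25) and Stmn3 at E17.5 (440). An exonic peak need only touch an exon. The best one had its midpoint in an intron for Stmn3 at E13.5 and E17.5 and for Stmn4 at E13.5 and E15.5. The same held for Map7d1 at E15.5 and E17.5 and for Mapre3 at E17.5. The tubulin genes Tubb2a and Tubb2b had coding peaks at E11.5 and E13.5 and a 3' UTR peak at E17.5. Their coding sequences are nearly alike, so reads there may be shared between them.

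Of 30 growth cone genes, 10, 9, 18 and 13 had an exonic peak. Crmp1, a collapsin response mediator, Fscn1, which bundles actin, and Rtn4, which encodes Nogo, had one on all 4 days, and Dpysl5, Dbn1, Evl and Tagln3 on 3. The best one had its midpoint in an intron for Rtn4 at E11.5, Dbn1 at E13.5 and Evl at E11.5 and E13.5. Dbn1, whose product drebrin binds actin, held the best rank of the list at E17.5 (42), Dpysl5 at E15.5 (112), Rtn4 at E13.5 (298) and Marcksl1 at E11.5 (50). Of 20 ankyrin and spectrin genes, 5, 4, 9 and 3 had one, with Epb41l1 and Epb41l3 on 3 days. At E17.5 the share of this list, 15.0%, was near the 13.5% of all protein-coding genes. On the earlier days it was above the share of all genes. Epb41 led at E11.5 (794) and E15.5 (1194), and Epb41l1 at E13.5 (2731) and E17.5 (335). Of 10 intermediate filament genes, 1, 1, 2 and 1 had one, near the share of all genes on each day. They were Ina, which encodes α-internexin and had 3' UTR peaks on all 4 days with its best rank at E17.5 (830), and at E15.5 also Lmnb1 (703), whose strongest peak had its midpoint in an intron.

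**Figure D4:**
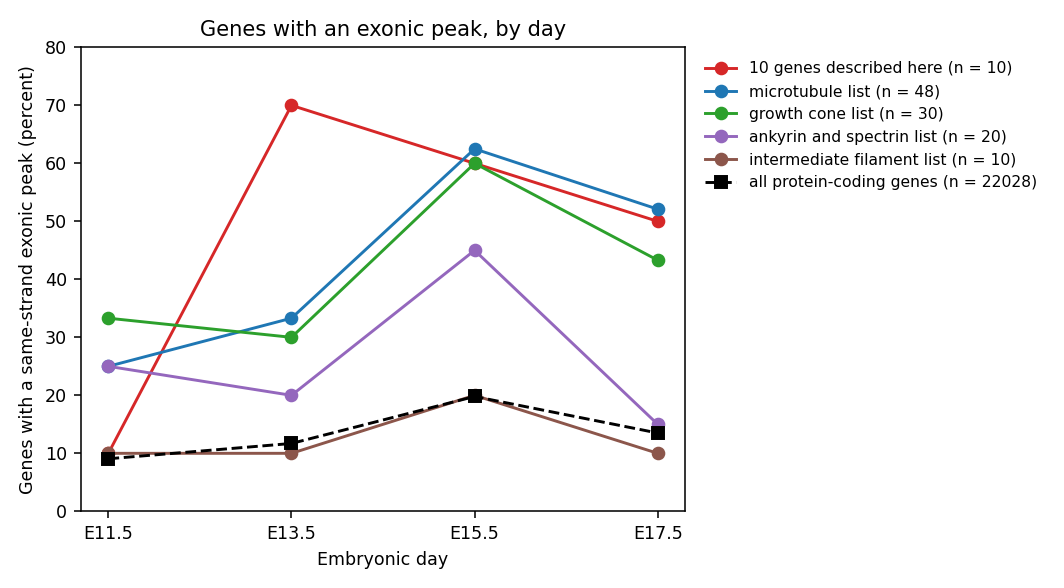
Points give the percent of genes with a same-strand exonic peak on each day for the 10 genes, for 4 lists of related genes and for all protein-coding genes (dashed). The 10 genes stand at 10.0% on E11.5 and 70.0% on E13.5, and the microtubule and growth cone lists stand at 62.5% and 60.0% on E15.5, the day with the longest peak list.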

How the data were processed

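The files are 8 deposited peak lists in mm10. Per the submitters' processing notes, the tools included Cufflinks 2.2.1, bedtools 2.17.0 and TopHat2 2.0.9, with no role stated. The peak caller and its test were not stated either. The authors deposited for each peak a score that was not used, a mean signal of unstated scaling, a p-value and a q-value, all q below 0.01. Peaks were ranked by p within a day over both strands. Between 94.1% and 97.4% of peaks over exactly 1 gene lay on the strand their list names. A gene had a peak when at least 1 bp lay over its body, or over an exon, on the same strand (GENCODE vM21). The part was read at the midpoint over all isoforms, CDS before 3' UTR. Assignment was checked on simulated peaks of 1 bp at positions of a single class, so longer peaks and mixed isoforms were not tested. Sequences were read through exon coordinates from GENCODE transcripts and folded with RNAfold 2.7.2. Intervals are exact at 95%. Of the related lists, genes with exonic peaks on at least 3 days or the best rank of a list and day are named. The genes and lists were chosen with earlier results of these data known, so no test of them was made. Python 3.11.15 and scipy 1.17.1 were used.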

Additional observations from a re-analysis of the deposited data

Results flagged for a closer look

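Outside the same-strand peaks, 2 peaks lay on the strand opposite these genes, both at E17.5. They were singled out because no comparison above uses that strand and no control list exists. The first, on the plus strand within the Basp1 3' UTR (chr15:25363446-25363497), had a deposited signal of 9.02 and rank 6135 of 6341, and lay wholly inside the Basp1 peak of the same day, at 0.304% of its signal. The second, on the minus strand over the Stmn2 3' UTR (chr3:8561179-8561303), had a signal of 10.5 and rank 1855, and no Stmn2 peak was listed on that day. No gene is annotated on the peak's strand at either place. Of all peaks, 0.413%, 0.392%, 0.896% and 1.18% from E11.5 to E17.5 had a peak of the same day on the other strand.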

How the results depend on the processing

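No replicate could be left out. No paired analysis was possible because the lists hold no values per library. Of 106 recomputed values, 77 stayed within 1.5 times the count or within the interval of the share. Of these, 17 came from leaving out peaks over 5000 bp and could not change, because none of the 40 peaks was that wide. The 3' UTR share at E11.5 rested on 1 peak, with an interval of 0% to 97.5%, so it could hardly move. With q below 0.001, which left between 1 and 6 peaks per day, every count of genes, of peaks and of overlapped peaks was 0. Among the stronger 50% of peaks, E11.5 had 0 genes and 0 peaks, E17.5 had 3 genes by body and by exon and 3 peaks, E13.5 kept 8 peaks and E15.5 7, and the 3' UTR share at E13.5 was 100% (5 of 5). With lists of equal length E15.5 had 7 peaks. With the longest coding isoform only, the 3' UTR share at E15.5 was 100%. With at least 50% of both peaks shared, 2 peaks recurred. Extending genes by 5000 bp downstream or asking for 50% of the peak inside moved none of these values past those limits. Nor did reading the class by any overlap or, chosen after seeing the data, reading 3' UTR before CDS. Depth is unknown, so a missing peak is not evidence of missing binding.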
